A study of Mus musculus with 12 samples.

Results

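The comparison described here sets the ileum of male pups born to restraint-stressed dams against that of male pups born to control dams. Its members were chosen by the labels alone: 3 libraries of stressed males and 3 of control males, 6 of the 12 samples in the series, with the other 6 samples from female littermates. All pups were of the C57BL/6 strain and 14 days old. Each stressed dam had spent 2 h a day in a ventilated tube from gestational day 7 to day 19, and each control dam had stayed undisturbed in its home cage. Each pup came from a dam of its own, so the litter is the replicate, and the word stressed refers to the dam and not to the pup. Of 35275 genes in the table, 15534 had enough reads in the 6 libraries to be tested.

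Restraint is a standard psychological stressor of rodents that drives the hypothalamus, pituitary and adrenal gland to release glucocorticoids. These hormones act through the glucocorticoid receptor, a transcription factor, and in the intestine they are known to hasten the maturation of the epithelium before weaning. The ileum is the last part of the small intestine. In the suckling mouse its enterocytes take up whole milk proteins by endocytosis, digest them in large lysosomes, and reclaim bile acids. Since whole ileum was sequenced, fewer cells of a type and less RNA of a gene per cell cannot be told apart anywhere below.

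The 6 libraries held between 16423523 and 20075567 counted reads and differed in ways that the groups do not follow. When read counts were compared between every pair of libraries, the closest of the 15 pairs was stressed male 2 with control male 2, at a chi-square of 13.8 for each degree of freedom. The next was stressed male 1 with stressed male 3, at 41.3, then stressed male 1 with control male 1, at 58.4, and the other 12 pairs lay between 82.5 and 200.2, so no library was a copy of another. Among 14463 genes of at least 1 CPM (read counts scaled to a common library size, with TMM factors), 4 equal classes by gene length separated the same libraries. In the shortest class (66 to 2009 bases) the median log2 deviation from the 6-library median was -0.12 and -0.21 in stressed males 1 and 3, 0.16 in stressed male 2, and 0.01, 0.14 and -0.01 in control males 1, 2 and 3. In the longest class (at least 4563 bases) it was 0.15 and 0.24 in stressed males 1 and 3, -0.14 in stressed male 2, and 0.02, -0.16 and -0.05 in control males 1, 2 and 3. Reads of the noncoding RNA gene Yam1 made up 1.39% and 4.13% of stressed males 1 and 3 and 1% of control male 1, together called Yam1-rich below, against 0.171% to 0.5% in the other 3. Control male 3 differed by over 2-fold from the 6-library median in 882 genes, against 71 to 491 in the others. Its ileal marker Fabp6, the bile acid binding protein of ileal enterocytes, stood at only 0.685 CPM, against 29.5 to 601 CPM in the other 5, while Fabp1, the fatty acid binding protein of the upper small intestine, stood at 1344 CPM against 0.147 to 0.631 CPM. The part of Yam1 reads and gut position in the results was not tested. The Y-linked gene Ddx3y was present in every library, at 51.9 to 81.3 CPM, and Xist, the transcript of the inactive X, was at 0.833 to 2.46 CPM, so all 6 fitted the male label.

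**Figure D1:**
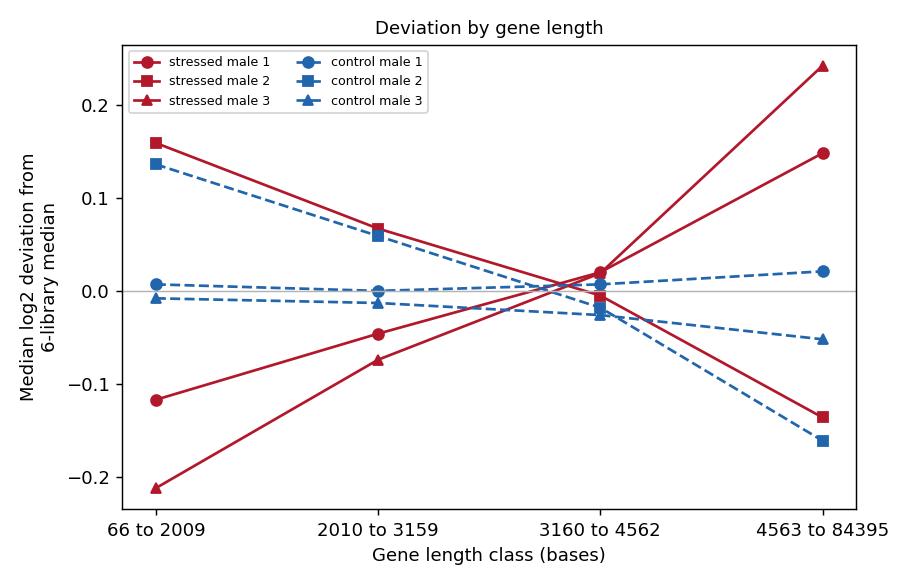
Median log2 deviation from the 6-library median (vertical axis, no unit) in each class of genes by gene length (horizontal axis, shortest to longest), 1 line per library. Stressed males 1 and 3 run upward from the shortest to the longest class, stressed male 2 and control male 2 run downward, and control males 1 and 3 stay near 0.

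Across all genes, no gene was distinguished between stressed and control males. In edgeR's quasi-likelihood test with Benjamini-Hochberg adjustment 0 of 15534 genes passed an adjusted p of 0.05 (0%), and the smallest adjusted p was 0.999. Without adjustment, 136 genes were higher in stressed males at a p under 0.05 (0.875% of genes) and 116 lower (0.747%). Together they were 252 genes, fewer than the 777 expected at this threshold if no gene differed. In 405 genes (2.61%) all 3 stressed males lay above all 3 control males in CPM, and in 447 (2.88%) they lay below. With median-ratio size factors these 2 counts were 310 and 581. By the sign of the log2 fold change, 7915 of all genes tested were higher (51%) and 7619 lower. These shares are the background for every count below. DESeq2 also gave 0 past the adjusted threshold, with 364 genes at an unadjusted p under 0.05, and limma-voom gave 0, with 222. The authors' deposited table gives 22920 genes an adjusted p for this comparison, of which 0 were under 0.05, and its smallest adjusted p was 0.99993.

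The number of genes near the threshold depended on single libraries and on scaling. Without stressed male 2 edgeR gave 1848 genes under an unadjusted 0.05, without control male 1 there were 1006 and without control male 2 there were 453. Without stressed male 1 there were 28 and without stressed male 3 there were 42. The adjusted count was 0 in each case. A fit of all 12 libraries of both sexes, which shares the estimate of spread, gave 1028 genes. The split of 136 higher and 116 lower became 112 and 146 with median-ratio size factors, 137 and 227 in DESeq2, 138 and 53 without control male 3, 211 and 284 with no filter on low counts, 170 and 69 on log2(FPKM + 1), 162 and 64 on log2(FPKM + 0.1), and 95 and 206 with each library corrected for its trend with gene length. Among genes of at least 1 CPM, the longest class held 72 of the higher genes and 10 of the lower, and the shortest class held 17 and 51.

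The genes named next have the smallest unadjusted p among genes of at least 1 CPM, without clone names, whose groups do not overlap. In the higher direction they were led by Mmp16 (chromosome 4, 17852893 to 18119145 of GRCm38, ENSMUSG00000028226), which encodes a membrane-bound matrix metalloproteinase of the cell surface. In stressed males 1, 2 and 3 Mmp16 stood at 16.2, 12.1 and 23.2 CPM, and in control males 1, 2 and 3 at 8.92, 7.25 and 6.35 CPM. As the choice of genes requires, all 3 stressed males lay above all 3 control males, and the log2 fold change was 1.19 ± 0.29 (SE). Rassf10, which encodes a Ras association domain protein, was even within each group. The stressed males held 3.62, 3.88 and 4.17 CPM of Rassf10 and the control males 2.08, 1.76 and 1.68 CPM. The difference between groups was wide against the spread within them, with a log2 fold change of 1.07 ± 0.28. Klb encodes β-Klotho, the co-receptor that lets FGF receptors bind the endocrine factors FGF15 and FGF21. CPM values of Klb were 9.25, 7.09 and 9.82 in stressed males and 3.58, 5.49 and 2.06 in control males. Its log2 fold change was 1.23 ± 0.37. None of these 3 passed the adjusted threshold.

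Long genes made up most of the rest of this group, and several were carried by stressed males 1 and 3. Celsr1, an atypical cadherin of planar cell polarity, stood at 21.5, 11.5 and 25.6 CPM in stressed males 1, 2 and 3 and at 4.97, 11.03 and 5.48 CPM in control males 1, 2 and 3. Stressed male 2 lay just above control male 2. Flrt1, a leucine-rich transmembrane protein, stood at 19.3, 6.41 and 29.5 CPM against 6.09, 5.93 and 4.98 CPM, with stressed male 2 again at the edge of the controls. It overlaps the gene Macrod1, and since no strand setting is stated, reads of the pair may be shared. Acaca, which encodes the acetyl-CoA carboxylase that makes malonyl-CoA for fatty acid synthesis, stood at 110.0, 51.5 and 126 CPM against 50.3, 49.6 and 42.2 CPM, a log2 fold change of 1.02 ± 0.32. In these genes the separation of the groups rested on a narrow gap between stressed male 2 and the highest control. Without the 3 Yam1-rich libraries, which leaves stressed male 2 against control males 2 and 3, the log2 fold change was 0.47 for Celsr1, 0.23 for Flrt1 and 0.17 for Acaca, against 0.83 for Mmp16, 1.17 for Rassf10 and 0.90 for Klb. The remaining 6 genes were D10Bwg1379e, Nrk, a protein kinase, Slc2a13, a myo-inositol transporter, Sik2, a salt-inducible kinase, Acss3, a short-chain acyl-CoA synthetase, and Klf12, a zinc finger transcription factor. Their log2 fold changes ran from 0.65 in Sik2 to 1.43 in Klf12. Acaca overlaps Gm11437 and Sik2 overlaps Ppp2r1b, with the same limit as Flrt1. Of the 12 genes 8 lay in the longest class of genes.

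Lower in stressed males, and chosen in the same way, the first gene was mt-Nd3 (ENSMUSG00000064360, on chromosome MT from 9459 to 9806). It encodes 1 of the complex I subunits and is taken up with the mitochondrial genome below. Next came Chka (ENSMUSG00000024843, on chromosome 19 from 3851773 to 3894369), which phosphorylates choline as the first step towards phosphatidylcholine. Chka stood at 78.1, 110.5 and 86.9 CPM in stressed males 1, 2 and 3 and at 167, 123 and 172 CPM in control males 1, 2 and 3. The highest stressed male lay below the lowest control male, and the log2 fold change was -0.75 ± 0.21. Sfn encodes 14-3-3σ, an epithelial adaptor protein that holds the cell cycle after DNA damage. In stressed males 1, 2 and 3 Sfn stood at 41.6, 52.3 and 40.99 CPM, and in control males 1, 2 and 3 at 64.6, 60.9 and 77.8 CPM. The log2 fold change was -0.59 ± 0.18. Bak1, the mitochondrial pore protein that carries out apoptosis, stood at 67.2, 81.00 and 67.5 CPM in stressed males and at 99.4, 89.04 and 118 CPM in control males, a log2 fold change of -0.51 ± 0.18. Both genes were lower in all 3 stressed males, by a smaller factor than Chka, and Bak1 overlaps Ggnbp1.

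Rab20, a small GTPase of endosomes and phagosomes, stood at 9.15, 11.6 and 8.28 CPM against 16.1, 17.2 and 13.1 CPM, and Upp1, uridine phosphorylase, at 1.13, 1.602 and 1.29 CPM against 2.72, 2.06 and 3.43 CPM. Their log2 fold changes were -0.68 ± 0.22 and -1.02 ± 0.34. Dcst1 had -0.83 ± 0.27 and Exoc3l2, a relative of the exocyst subunits that tether secretory vesicles, -0.76 ± 0.26. Ggt1, the γ-glutamyltransferase that cleaves glutathione at the cell surface, belongs to this group by a narrow gap only. The stressed males held 1.52, 1.65 and 1.41 CPM of Ggt1 and the control males 1.71, 2.21 and 72.99 CPM. Its log2 fold change of -4.06 became -0.36 without control male 3. Of these 12 genes 1, Chka, lay in the longest class by length.

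**Figure D2:**
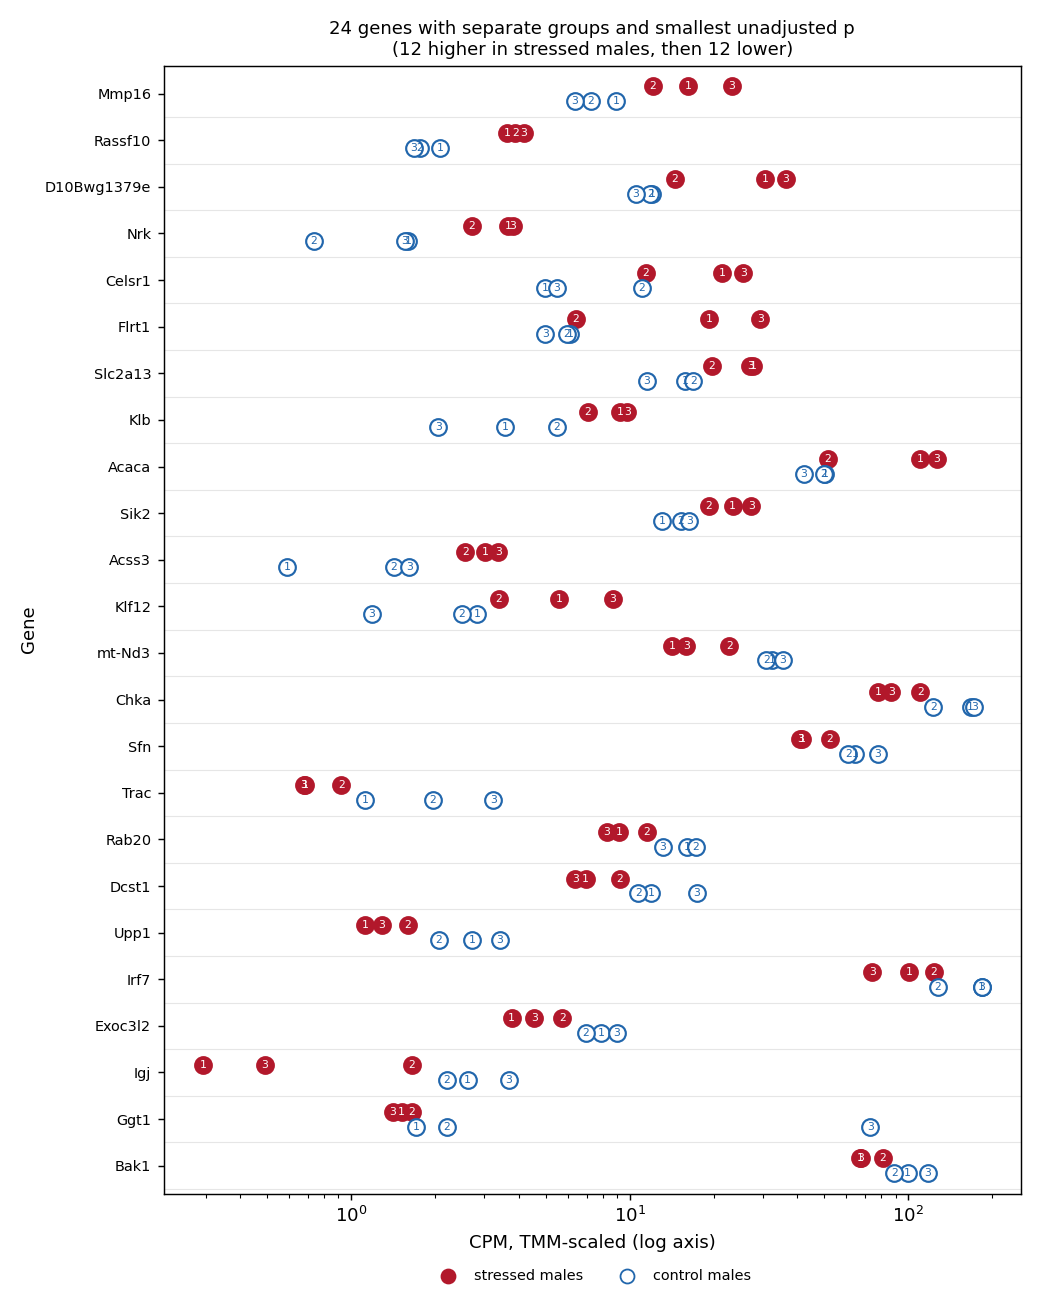
CPM (log axis) in each of the 6 libraries of the 24 genes of smallest unadjusted p whose groups do not overlap, 12 higher and 12 lower in stressed males. Filled circles are stressed males, open circles control males, and the digit is the dam's number. In Celsr1, Flrt1 and Acaca stressed male 2 sits next to the controls, and in Ggt1 control male 3 stands far from the other 5 libraries.

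Transcripts of the mitochondrial genome were lowest in stressed male 3 in most genes, and low in stressed male 1. This circular genome encodes subunits of respiratory complexes I, III and IV and of ATP synthase, and is transcribed inside the organelle apart from nuclear genes. All 12 tested members were lower in stressed males, at a median log2 difference of -0.95, 9 of the 12 without overlap between the groups, against 2.88% of all genes, and 5 at an unadjusted p under 0.05, against 0.747%. mt-Atp8 did not pass the filter on low counts. The 12 genes come from 1 genome, so they are not 12 independent results. As a share of all counted reads, the mitochondrial genome made up 2.18%, 3.47% and 1.16% in stressed males 1, 2 and 3. In control males 1, 2 and 3 it made up 4.59%, 4.21% and 4.32%. For mt-Nd3 the stressed males stood at 14.2, 22.8 and 15.95 CPM and the control males at 32.5, 30.9 and 35.5 CPM, so that stressed male 2 was low here as well. For mt-Nd6, the member encoded on the other strand, the values were 1039.5, 1197 and 737 CPM against 2172, 1279 and 1705 CPM. mt-Cytb, the subunit of complex III, stood at 2415, 4833 and 1128 CPM against 5571, 5648 and 6761 CPM. In both genes stressed male 2 was the stressed male nearest to the controls. mt-Co1, the catalytic subunit of complex IV, did overlap. CPM values of mt-Co1 were 5211, 13728 and 3769.9 in stressed males and 12352, 17904 and 18682 in control males. Stressed male 2 lay above control male 1, and stressed males 1 and 3 lay far below the other 4 libraries. Without the 3 Yam1-rich libraries the median log2 fold change of the 12 genes was -0.34.

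Nuclear genes of the respiratory chain were lower by less. Of 37 nuclear subunits of complex I, 35 were lower in stressed males, at a median log2 difference of -0.23. Of 38 subunits of complexes II to V all 38 were lower, with a median of -0.31. Over both lists the groups were separate in 1 gene, Ndufa6, an accessory subunit of complex I, which stood at 75.9, 87.4 and 74.00 CPM against 97.98, 88.2 and 103 CPM. These are short genes, with median lengths of 983 and 978 bases, and over all genes of the shortest class the median log2 fold change was -0.12. With the length correction the medians were -0.12 and -0.23, and without the 3 Yam1-rich libraries both were 0.02. They were -0.47 and -0.67 without stressed male 2, -0.12 and -0.13 without stressed male 3, and -0.12 and -0.16 without control male 3. The factors that transcribe and copy mitochondrial DNA differed little in the median (-0.06 over 15 genes), although it ran from -0.24 without control male 1 to 0.07 without control male 3. Esrra, the orphan nuclear receptor that drives genes of respiration, stood at 212, 222 and 207 CPM against 223, 237 and 335 CPM, without overlap but with a gap of less than 1 CPM.

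**Figure D3:**
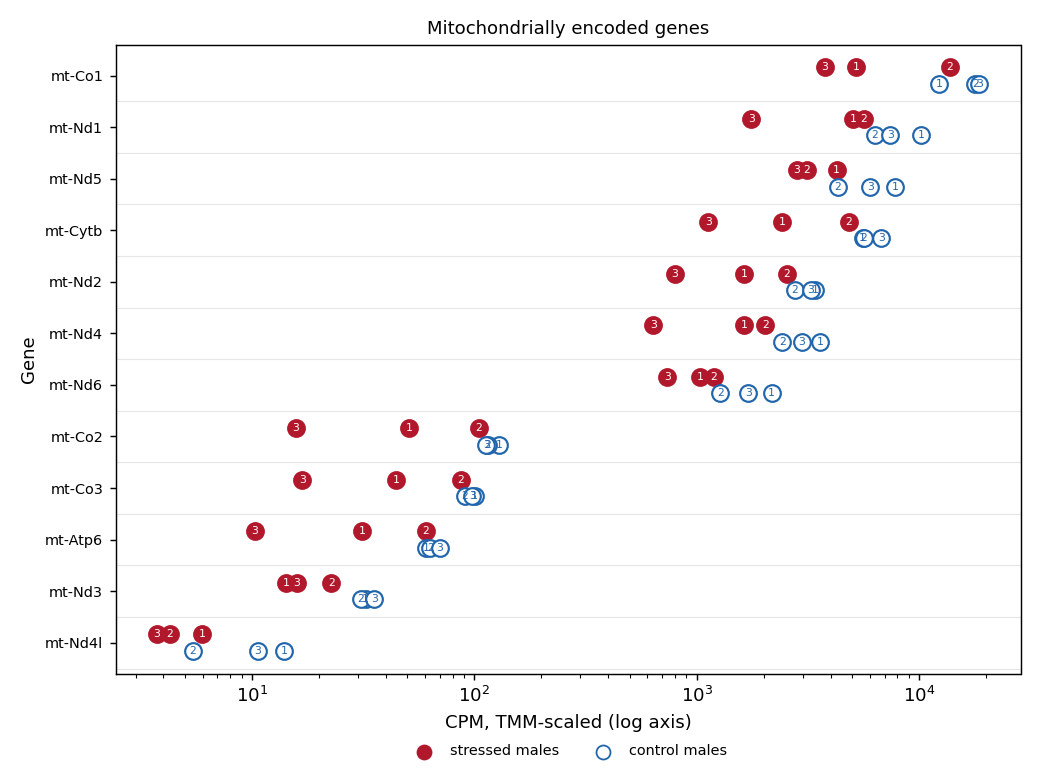
CPM (log axis) of the 12 tested genes of the mitochondrial genome in each library. Filled circles are stressed males, open circles control males, and the digit is the dam's number. Stressed male 3 is the lowest library in most rows, and stressed male 2 lies near control male 2.

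The glucocorticoid pathway itself showed no separation of the groups. Nr3c1, which encodes the glucocorticoid receptor, stood at 292, 208 and 342 CPM in stressed males and 229, 208 and 268 CPM in control males, and its log2 fold change of 0.26 ± 0.23 was close to its error. Nr3c2, the mineralocorticoid receptor, stood at 25.4, 22.2 and 27.4 CPM against 28.1, 23.9 and 28.3 CPM. Hsd11b2, the enzyme that inactivates corticosterone, stood at 6.07, 9.71 and 6.504 CPM against 2.51, 9.95 and 4.42 CPM, a wide spread within each group. Hsd11b1, which regenerates it, reached at most 1.496 CPM in any library. Of the 13 tested genes of receptors, chaperones and steroid handling 8 were higher and 5 lower, with 0 separated. Crh and the receptors Crhr1 and Crhr2, the hypothalamic releasing hormone and its receptors, were under the filter.

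Among the targets of the receptor the values followed single pups. Fkbp5, the immunophilin that feeds back on the receptor, stood at 11.2, 11.1 and 14.4 CPM against 12.8, 10.3 and 13.4 CPM, with a log2 fold change of 0.00 ± 0.21. Tsc22d3, the anti-inflammatory target GILZ, stood at 24.6, 57.5 and 26.5 CPM against 31.1, 55.2 and 105 CPM, where libraries 2 of both groups were alike and control male 3 was highest. Cebpd, a transcription factor of acute responses, stood at 3.91, 8.11 and 3.87 CPM against 6.73, 10.2 and 14.3 CPM, a log2 fold change of -0.97 ± 0.40 with overlap. Of 22 targets 17 were lower and 5 higher, with a median of -0.23, against 0.01 over all genes, and 0 of the 22 were separated. With 1 library left out that median ran from -0.40 without stressed male 2 to -0.17 without stressed male 1, and it was -0.09 without the 3 Yam1-rich libraries.

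Other stress programmes gave similar pictures. Jun, which pairs with Fos in the AP-1 factor, stood at 108, 115 and 116 CPM in stressed males and 171, 139 and 139 CPM in control males, without overlap, at a log2 fold change of -0.40 ± 0.17. It was the only 1 of 20 immediate early genes whose groups were separate. Fos itself stood at 2.89, 12.1 and 4.29 CPM against 4.17, 11.9 and 43.8 CPM, where the control mean was carried by control male 3. The heat shock chaperones had a median of -0.07 over 16 genes, the unfolded protein response 0.03 over 22 and the circadian clock 0.02 over 18. With 1 library left out these medians ran from -0.21 without stressed male 2 to 0.00 without stressed male 1 for the chaperones, from -0.11 without control male 1 to 0.10 without control male 2 for the unfolded protein response and from -0.16 without control male 2 to 0.08 without control male 1 for the clock. In the first and the third of these lists 0 genes were separated, and in the second only Asns, asparagine synthetase, was, at a log2 fold change of 0.33 ± 0.17. Genes of the oxidative stress response were lower in 17 of 19, with a median of -0.22. Gclm, the regulatory subunit of glutathione synthesis, stood at 145, 166 and 145 CPM against 202, 168 and 239 CPM without overlap. Gpx4, the glutathione peroxidase that reduces lipid peroxides, stood at 171, 203 and 132 CPM against 277, 199.6 and 258 CPM, where stressed male 2 lay above control male 2. The median of this list was -0.46 without stressed male 2, -0.13 without stressed male 3 and 0.03 without the 3 Yam1-rich libraries.

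Cholesterol synthesis genes were mostly higher in stressed males. Cells control them together through SREBP2, a membrane-held transcription factor that is released when sterols are short and binds sterol regulatory elements in their promoters. Of 28 genes 25 were higher and 3 lower, at a median log2 difference of 0.38. Only 1 of the 28, the sterol reductase gene Tm7sf2, was separated, against 2.61% of all genes, and 2, with Lss among them, were at an unadjusted p under 0.05, against 0.875%. Hmgcs1 makes HMG-CoA, the precursor of the pathway, and its promoter is shown because it is the member whose start region carries the element. RefSeq's table (GRCm38.p6) gave promoter windows of 300 bases, 250 before and 50 after the start, for 20 of the 28 genes. The element, searched as TCACNCCAC on both strands with 1 free base, was found in 1 of the 20, and in 408 of all 32851 windows (1.24%). It is in capitals below, at positions 114 to 122 of the window chr13:119690101-119690400 on the plus strand.
Hmgcs1 promoter: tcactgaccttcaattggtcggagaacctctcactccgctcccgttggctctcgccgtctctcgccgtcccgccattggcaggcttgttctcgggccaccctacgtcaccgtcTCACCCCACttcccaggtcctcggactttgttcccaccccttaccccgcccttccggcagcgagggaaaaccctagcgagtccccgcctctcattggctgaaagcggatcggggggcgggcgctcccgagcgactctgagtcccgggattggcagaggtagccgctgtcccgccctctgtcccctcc
A match of letters is a description and not a measured binding site. Hmgcs1 stood at 295, 201 and 285 CPM in stressed males 1, 2 and 3 and at 166, 224 and 139 CPM in control males 1, 2 and 3. Control male 2 lay above stressed male 2, and control males 1 and 3 were the lowest libraries. Lss, the cyclase that forms lanosterol, stood at 45.2, 30.2 and 43.8 CPM against 20.6, 33.3 and 18.1 CPM. In both genes stressed male 2 and control male 2 were close, with control male 2 the higher, and the difference came from the other 4 libraries. The median of the list was 0.26 without control male 3, 0.60 without control male 2 and 0.18 without the 3 Yam1-rich libraries.

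Genes that handle dietary fat were lower, and control male 3 stood apart in them. All 15 of 15 genes of fatty acid uptake and re-esterification were lower, with a median of -0.54, and 11 of 12 genes of apolipoproteins and chylomicron assembly, with a median of -0.76. In the first list only Plin3, a coat protein of lipid droplets, was separated. Without control male 3 these medians were -0.13 and -0.23. Creb3l3, a membrane-held transcription factor of lipid genes, was the 1 member of the second list with separate groups. In stressed males 1, 2 and 3 Creb3l3 stood at 229.9, 268 and 221 CPM, and in control males 1, 2 and 3 at 360.2, 303 and 641 CPM. Its log2 fold change was -0.86 ± 0.30. Apoc2, the activator of lipoprotein lipase, stood at 8.37, 69.02 and 7.55 CPM against 14.4, 54.7 and 654 CPM, high in control male 3 and in the libraries numbered 2. Of 18 genes of phospholipid synthesis 11 were lower and 7 higher, with a median of -0.18. With 1 library left out this median ran from -0.19 without control male 2 to -0.03 without control male 3. In the list 2 genes (11.1%) were separated and lower, against 2.88% of all genes. They were Chka, chosen above for its separate groups, and Pcyt2, the rate-limiting enzyme of phosphatidylethanolamine synthesis. The stressed males held 139, 146 and 141 CPM of Pcyt2 and the control males 168, 173 and 171 CPM. All 3 stressed males lay below all controls, with little spread within either group, and the log2 fold change was -0.27 ± 0.15.

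Markers of position and of epithelial maturity varied with control male 3. All 10 tested markers of the proximal small intestine were lower in stressed males, at a median log2 difference of -1.92, which became 0.07 without control male 3. Of 12 markers of enterocytes after weaning 11 were lower, with -0.89, which became 0.07. Sis, the sucrase-isomaltase that appears at weaning, stood at 8.95, 18.01 and 8.59 CPM in stressed males and 3.53, 13.5 and 948 CPM in control males. Fcgrt, the neonatal Fc receptor that carries maternal antibody across the suckling gut, stood at 553, 893 and 365 CPM against 831, 849 and 3982 CPM. In both genes the other 5 libraries overlapped. The distal markers had 7 of 11 genes higher and a median of 0.12, which became -0.41 without stressed male 2, -0.06 without control male 3, 0.37 without control male 2 and 0.34 without the 3 Yam1-rich libraries. Cubn, the receptor of endocytosis in ileal enterocytes, stood at 823, 608 and 1237 CPM against 533, 642 and 848 CPM and overlapped. Of 20 genes of the endocytic machinery 0 were separated, with a median of -0.09, which became 0.04 without the 3 Yam1-rich libraries.

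Lysosomal enzymes were lower in 20 of 25, with a median of -0.22. Lipa, the lysosomal acid lipase, stood at 178, 176 and 159 CPM in stressed males and 198, 206 and 263 CPM in control males and was the only separated gene. With 1 library left out the median ran from -0.46 without stressed male 2 to 0.04 without control male 2, it was 0.01 without stressed male 3, and it was 0.24 without the 3 Yam1-rich libraries. Maf, a transcription factor of enterocytes and other cells, stood at 419.7, 431 and 452 CPM against 606, 467 and 661 CPM, without overlap and with a log2 fold change of -0.41 ± 0.21. It was the only 1 of 18 intestinal transcription factors that was separated.

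Among the secretory and crypt cells of the epithelium, Muc2 had separate groups. It encodes the gel-forming mucin of goblet cells. CPM values of Muc2 were 435, 362 and 627 in stressed males and 194, 341 and 275 in control males. All 3 stressed males lay above the controls, with a log2 fold change of 0.82 ± 0.30, although stressed male 2 lay close to control male 2. Of 12 goblet cell genes 10 were higher, with a median of 0.34, which became -0.04 without control male 1, whose median deviation was -1.47, 0.08 without stressed male 2 and 0.90 without control male 2. Zg16, a lectin of the mucus, ran the other way through 1 library, with 1.27, 8.202 and 1.04 CPM against 0.321, 3.58 and 548 CPM. Lgr5, the receptor that marks crypt stem cells, stood at 43.9, 35.4 and 51.5 CPM against 23.8, 39.2 and 24.7 CPM, again with libraries 2 close to each other. In its list of 16 crypt stem cell and Wnt target genes, 10 were higher and 6 lower, with a median of 0.05 and 0 separated. With 1 library left out this median ran from -0.01 without control male 1 to 0.20 without control male 3. Foxm1, a transcription factor of mitosis, stood at 26.03, 19.8 and 22.3 CPM against 16.5, 18.4 and 16.5 CPM and was the only 1 of 30 cell cycle genes with separate groups, in a list with a median of 0.09. That median ran from -0.14 without control male 1 to 0.17 without control male 2 and was -0.01 without the 3 Yam1-rich libraries. Of the 17 tight junction genes F11r, the adhesion molecule JAM-A, was separated and lower, at 179, 194 and 150.1 CPM against 210.3, 207 and 235 CPM, and the median of the list was 0.00, running from -0.09 without control male 1 to 0.04 without control male 2.

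In the gut wall, matrix genes were higher and vessel genes lower. Of 20 genes of the fibroblast matrix 19 were higher, with a median of 0.31, and 4 (20%) were separated, against 2.61% of all genes: Col3a1, Col5a2, Fn1 and Pdgfra. Col5a2, a chain of the collagen that sets fibril width, stood at 179, 179.9 and 191 CPM against 174, 127 and 122 CPM. Pdgfra, the growth factor receptor of mesenchymal cells, stood at 190.1, 158 and 208 CPM against 149, 151 and 138 CPM. Both were separate with a narrow gap, and their log2 fold changes were 0.38 ± 0.19 and 0.34 ± 0.18. Col14a1, a collagen on the surface of fibrils, stood at 137, 92.8 and 122 CPM against 78.6, 49.98 and 92.9 CPM, where stressed male 2 and control male 3 were level. These are long genes, with a median length of 5747 bases, and the median of the list was 0.17 with the length correction. It stayed between 0.20 and 0.40 when any 1 library was left out.

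Blood and lymph vessel genes were lower in 17 of 19, with a median of -0.32. Of these, 5 (26.3%), namely Cdh5, Eng, Pecam1, Robo4 and Tek, were separated, against 2.88% of all genes, and 2 were at an unadjusted p under 0.05, against 0.747%. Eng, the co-receptor endoglin of TGF-β on endothelium, has a span that overlaps those of Fpgs and Ak1. It stood at 33.2, 39.99 and 32.5 CPM in stressed males and 52.3, 42.7 and 45.6 CPM in control males, a log2 fold change of -0.41 ± 0.17. Cdh5, the cadherin of endothelial junctions, stood at 49.1, 60.8 and 51.5 CPM against 73.5, 64.8 and 67.8 CPM, with -0.35 ± 0.16. In these 2 genes stressed male 2 was the highest stressed male and control male 2 the lowest control, and they did not cross. Cldn5 stood at 10.1, 15.6 and 10.6 CPM in stressed males 1, 2 and 3 and at 21.5, 14.9 and 18.4 CPM in control males 1, 2 and 3. This claudin seals vessel junctions, and it overlapped through stressed male 2. The median of the list was -0.39 with the length correction, between -0.27 and -0.41 when any 1 library was left out, and -0.14 without the 3 Yam1-rich libraries.

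Kit, the receptor kinase of interstitial cells of Cajal, the pacemaker cells of the gut, was higher. In stressed males 1, 2 and 3 Kit stood at 41.7, 38.1 and 40.1 CPM, and in control males 1, 2 and 3 at 34.03, 29.6 and 22.4 CPM. The stressed males lay close together and above all controls, at a log2 fold change of 0.48 ± 0.19. The list of these cells had 6 of 8 genes higher and a median of 0.24, which was 0.52 without control male 1, 0.10 without control male 2 and 0.09 without control male 3. Its chloride channel Ano1 stood at 29.8, 38.1 and 31.2 CPM against 28.05, 24.2 and 32.4 CPM and overlapped. Kit is also the receptor of mast cells, of which 4 of 11 markers passed the filter. Gata2, a transcription factor of mast cells and their precursors, was lower and separate, at 1.76, 1.699 and 2.15 CPM against 3.15, 2.695 and 3.301 CPM. It was the only 1 of these 4 markers with separate groups. All 4 were lower, with a median of -0.43. The mast cell proteases Mcpt1 and Mcpt2 overlapped, with log2 fold changes of -0.38 ± 0.37 and -0.48 ± 0.41. Smooth muscle and enteric neuron genes each had a median of 0.02, over 18 and 20 genes, with 0 separated. Without control male 1 these medians were 0.53 and 0.62, without control male 2 they were -0.23 and -0.24, and without the 3 Yam1-rich libraries 0.54 and 0.59. Their median deviations were 0.71 and 0.75 in control male 1 and -0.53 for both lists in control male 2, the highest and lowest values among the libraries.

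Interferon and antigen presentation genes were lower where the groups were separate. Irf7 (chromosome 7, 141262706 to 141266481, ENSMUSG00000025498), which switches on type I interferon genes, stood at 101, 124 and 74.4 CPM in stressed males and 183, 127 and 183 CPM in control males, and its span overlaps that of Phrf1. Stressed male 2 lay just below control male 2, and the log2 fold change was -0.72 ± 0.25. Mx2, a relative of antiviral GTPases annotated as a polymorphic pseudogene, stood at 0.147, 0.582 and 0.491 CPM against 1.07, 0.931 and 1.25 CPM. Of 38 interferon-stimulated genes 31 were lower, with a median of -0.21, and 3 (7.89%) were separated, against 2.88%: Irf7, Irf9, a part of the interferon signalling complex, and Mx2. With 1 library left out the median ran from -0.33 without control male 2 to -0.07 without control male 3. Of 19 genes of MHC class I presentation 18 were lower, with -0.39, and 2 (10.5%) were separated, against 2.88%. They were Tapbp, the peptide editor tapasin, and Tap2, a subunit of the peptide transporter. Tap2 stood at 14.2, 17.6 and 15.03 CPM against 18.7, 18.3 and 22.5 CPM, and the median of the list was -0.16 without control male 3.

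Lymphocyte transcripts were scarce and separate in a few genes. Trac, the constant region of the T cell receptor α chain, stood at 0.685, 0.922 and 0.675 CPM in stressed males and 1.12, 1.96 and 3.24 CPM in control males, a log2 fold change of -1.45 ± 0.46. Igj, the joining chain of secreted IgA, stood at 0.294, 1.65 and 0.491 CPM against 2.62, 2.21 and 3.67 CPM. Ccl5, a chemokine of T cells, stood at 0.196, 0.582 and 0.614 CPM against 0.962, 0.784 and 1.99 CPM. In all 3 the stressed males were below every control, which for Trac and Igj was a condition of their choice. Of 17 T cell and cytotoxic genes 14 were lower, with a median of -0.24, and only Trac was separated. The median became 0.21 without control male 2, -0.40 without control male 1 and -0.45 without control male 3. Cd3d, a chain of the receptor's signalling complex, stood at 0.636, 1.41 and 0.491 CPM against 1.39, 2.06 and 0.498 CPM and overlapped. Cxcl16, a chemokine of epithelium and macrophages, was lower at a higher level. The stressed males held 16.8, 17.4 and 15.1 CPM of Cxcl16 and the control males 20.03, 19.9 and 22.7 CPM. Its log2 fold change was -0.34 ± 0.17. Ccl5 and Cxcl16 were the 2 separated members of the list of inflammatory cytokines and chemokines. Of its 17 tested genes 12 were lower and 5 higher, with a median of -0.16, and 14 more were under the filter. With 1 library left out this median ran from -0.385 without stressed male 2 to -0.066 without control male 3. It was 0.02 without the 3 Yam1-rich libraries. Macrophage genes had a median of -0.05 with 0 of 16 separated, and the median ran from -0.38 without control male 1 to 0.27 without control male 3. Among 19 innate receptors only Tlr2, which senses bacterial lipoproteins, was separated, and it was higher in stressed males. Tlr5, the receptor of bacterial flagellin, was higher by a log2 fold change of 0.75 ± 0.28, at 24.4, 15.9 and 28.7 CPM against 12.6, 17.5 and 10.96 CPM, where stressed male 2 lay below control male 2.

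**Figure D4:**
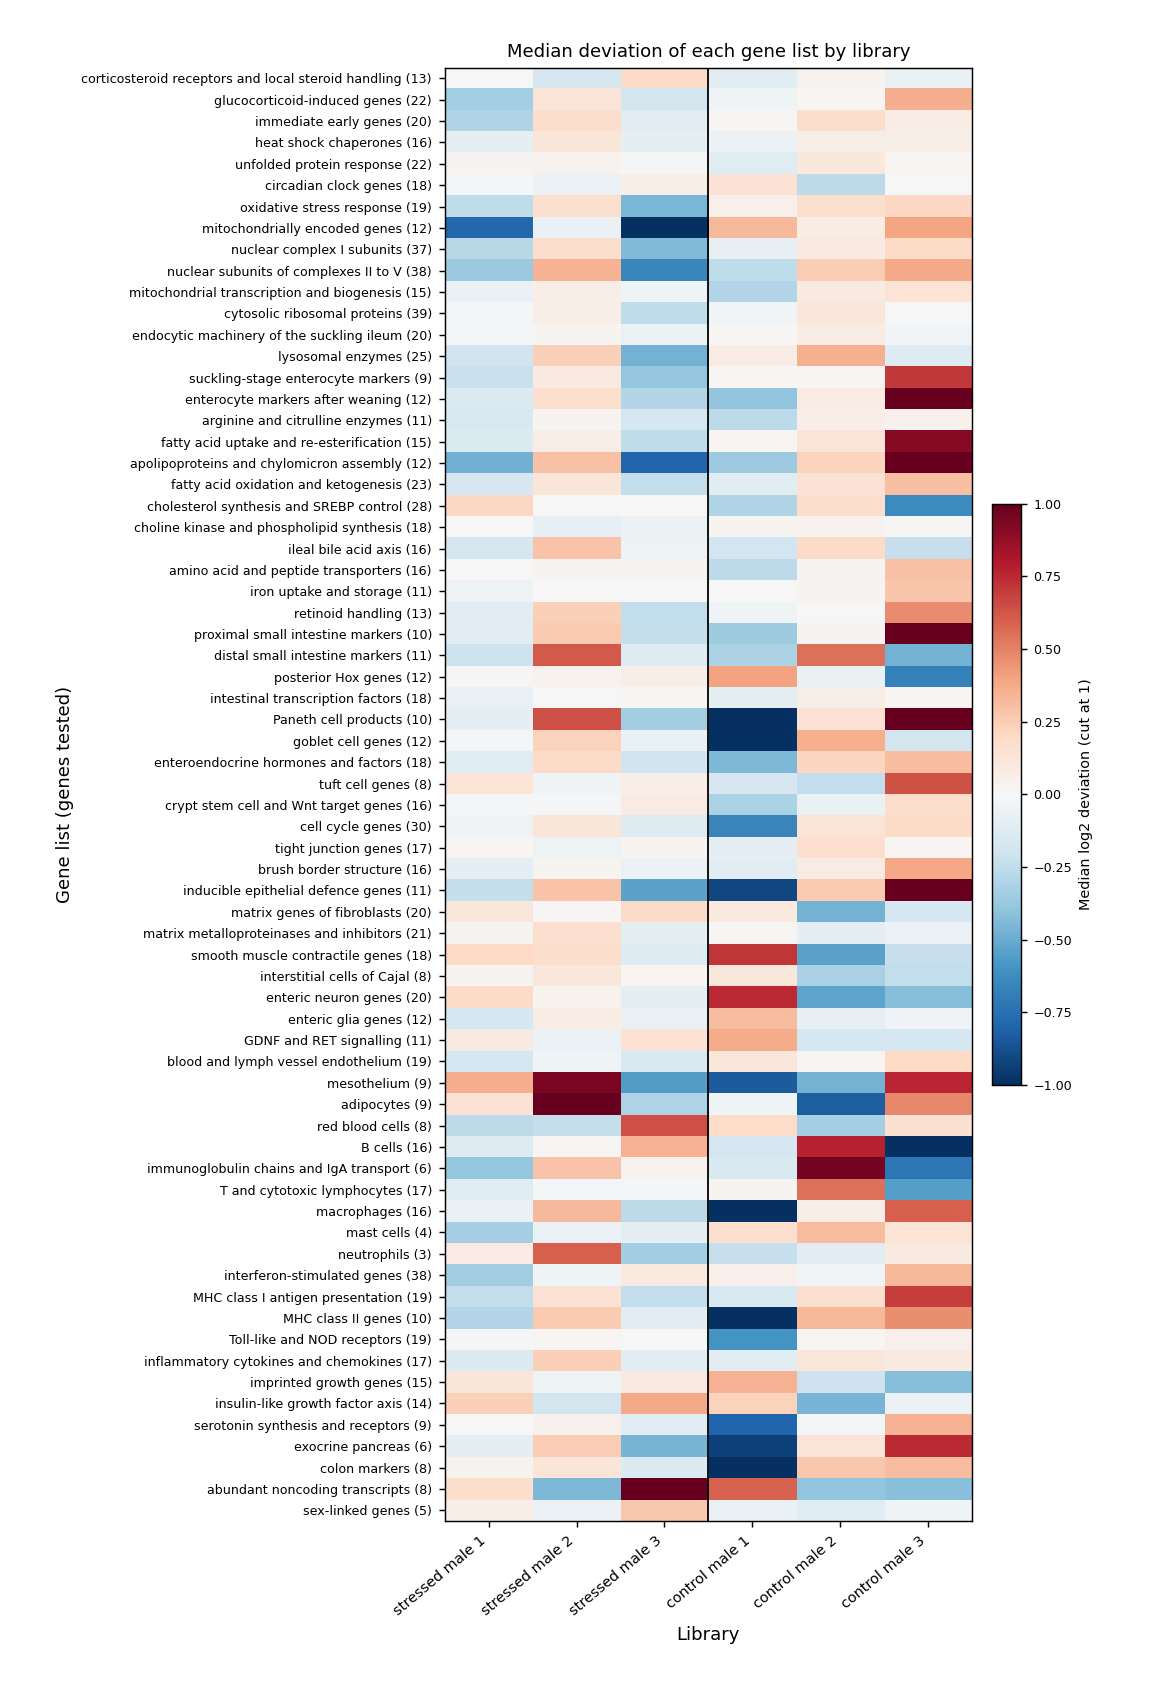
Median log2 deviation from the 6-library median (colour, no unit, cut at 1 in either direction) of the tested genes of each list (rows, number of genes in brackets) in each library (columns). Stressed male 2 and control male 2 look alike in many rows, control male 3 is high in the lipid and proximal lists, and control male 1 is low in goblet, Paneth and macrophage genes.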

How the data were processed

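Gene counts of the 6 male libraries were taken from the count table the authors deposited. The build GRCm38 (mm10) and the tools TopHat, STAR 2.5, HTSeq 0.6.1, DESeq2 and edgeR 3.16.5 were used in roles that are not stated, per the submitters' processing notes. The annotation release and strand setting are not given in the sources used here. Reads may therefore be shared wherever a named gene overlaps another. Besides the genes marked above, this holds among others for Esrra with Trmt112, Cxcl16 with Zmynd15, Tapbp with Zbtb22, Apoc2 with Apoc4 and mt-Nd6 with mt-Nd5. FPKM values in a second table the authors deposited served only as an alternative scale, and the deposited log2 fold changes and p-values of the authors' comparison were used only where named.

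Genes were filtered with filterByExpr, scaled by TMM and tested with the quasi-likelihood test of edgeR 4.0.16 (R 4.3.3), with Benjamini-Hochberg adjustment over all genes tested at 0.05. DESeq2 1.42.0 and limma 3.58.1 were alternatives, as was removing from each library a loess trend (span 0.5) of its log2 deviations on gene length. The code was tested on simulated data with the same library sizes. Each gene was drawn independently, without the differences that many genes of a library share, so the recovery may not hold for the 6 libraries. There edgeR recovered 7 of 100 simulated 2-fold changes and 75 of 100 simulated 4-fold changes at an adjusted p under 0.05, with 7 false calls. DESeq2 recovered 30 and 91, with 35 false calls. A count of 0 genes therefore does not show that no gene changed by 2-fold. Log2 fold changes are stressed minus control, ± is their SE with 3 pups a group, and separated means that the groups do not overlap in CPM. Totals of 16423523 to 20075567 counts a library set the counting error, which is small beside the spread between litters except in genes near 1 CPM.

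The genes named were the 12 higher and 12 lower of smallest unadjusted p among separated genes of at least 1 CPM, the 3 of smallest p in each list, the 3 of highest CPM in lists of cell types and regions, and a fixed set for glucocorticoids, mitochondria and sex. Fn1, Irf9, Plin3, Robo4, Tek, Tlr2 and Tm7sf2 were named after their values were seen. 1 gene that the rule selects is not reported here. The comparison and the lists were chosen with earlier results of these data known.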

Additional observations from a re-analysis of the deposited data

How the results depend on the processing

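The adjusted count stayed at 0 under every alternative run: median-ratio size factors, DESeq2, limma-voom, a minimum mean of 1 CPM, no filter on counts, both FPKM scales, all 12 libraries in 1 fit, the replicate block, each library left out, the 3 Yam1-rich libraries left out, and the gene length correction. The last was chosen after seeing the data. Genes under an unadjusted p of 0.05 numbered 495 with no filter, 1028 with all 12 libraries and 66 without the 3 Yam1-rich libraries, and from 28 to 1848 with 1 library left out, lowest without stressed male 1 and highest without stressed male 2. Genes without overlap numbered 694 lower with no filter, and with 1 library left out from 550 to 2658 higher and from 669 to 2528 lower, where separation is easier to reach with fewer samples. Stressed and control pups share the numbers 1 to 3 but not dams. For this comparison deviations were taken from the mean of the library's own group. Those of same-numbered libraries correlated at 0.35, 0.39 and -0.09, and those of differently numbered libraries at -0.41 to 0.32. Deviations within a group cancel out in each gene, so these correlations are not independent of each other. No label says that a number marks a pair, so the numbers were not taken as pairs in the main fit. The replicate block gave 320 genes at an unadjusted p under 0.05 and 0 adjusted. Some log2 fold changes turned direction. With 1 library left out at a time, that of Sis ran from -5.36 to 0.48, Zg16 from -7.32 to 0.84, Lyz1 from -1.90 to 0.51 and Cd79a from -0.26 to 1.67, each crossing 0 without control male 3. Fabp6 ran from -0.63 to 3.97 and Fabp4 from -0.48 to 0.79, crossing 0 without stressed male 2, and Fkbp5 from -0.14 to 0.079. Without the 3 Yam1-rich libraries Nr3c1 had -0.19, Cubn -0.29, Cd3d 0.12, Hsd11b1 0.28 and Fkbp5 -0.093. With the length correction Cubn had -0.027 and Fkbp5 -0.046. Fkbp5 also had -0.017 with median-ratio factors and in DESeq2, and -0.003 with no filter. The cause was not tested. The common biological coefficient of variation between litters was 0.304.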

Other observations

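Markers of tissue next to the gut and of other cell types differed widely between single pups, with no separation of the groups. Retn, the adipocyte hormone resistin, stood at 1.27, 12.04 and 0.798 CPM in stressed males 1, 2 and 3 and at 0.427, 0.098 and 2.24 CPM in control males 1, 2 and 3, and Fabp4, the fatty acid binding protein of adipocytes, at 40.6, 158 and 41.2 CPM against 56.4, 51.7 and 62.9 CPM. Stressed male 2 was the highest library in both. Upk3b, a marker of the mesothelium that covers the gut, stood at 26.3, 42.1 and 4.48 CPM against 2.14, 2.499 and 31.3 CPM, low in stressed male 3 and control males 1 and 2. Lyz1, the lysozyme of Paneth cells, stood at 181, 435 and 109 CPM against 41.8, 298 and 1261 CPM, lowest in control male 1 and highest in control male 3. Cd79a, a part of the B cell receptor, stood at 7.34, 10.3 and 10.9 CPM against 5.56, 17.1 and 0.374 CPM, and control male 3 was the lowest.

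Growth genes were mostly higher without separation. Of 14 genes of the insulin-like growth factor axis 12 were higher in stressed males, at a median log2 difference of 0.29, which was 0.13 without control male 2 and 0.12 without the 3 Yam1-rich libraries. Igf1r, the receptor of the pathway, stood at 45.4, 17.9 and 64.98 CPM against 33.4, 15.9 and 16.9 CPM, high in stressed males 1 and 3 and in control male 1. H19, an imprinted noncoding RNA that restrains growth, stood at 369, 189 and 439 CPM against 358, 164 and 55.5 CPM and followed the same libraries. The 15 imprinted growth genes had 11 higher and a median of 0.23, and 0 genes of either list were separated. The latter median ran from 0.09 without control male 3 to 0.54 without control male 1.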
